A study of Mus musculus with 12 samples.

Results

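The genes described here are 7 markers of the mesonephros and of the rete, the tubules that connect the gonad to its duct: Pax2, Pax8, Gata3, Lhx1, Calb1, Ret and Emx1. They were taken by symbol from the array's annotation, and 6 of the 7 have a transcript cluster of their own, the array's unit for 1 locus, among 30701 genes that do. The only cluster listing Gata3, a zinc finger factor of the nephric duct, also lists another gene, so no value was given to Gata3. RNA was measured in mouse gonads at 14.5 days post coitum on the 1-colour Affymetrix Mouse Transcriptome Array 1.0, in 3 groups of 4 arrays, with 1 pair of gonads from 1 embryo per array. XY FOXL2+ gonads carried the Rosa26-CAG-LSL-Foxl2+/f allele, which holds Foxl2, a transcription factor of ovarian granulosa cells, behind a stop cassette that Cre removes. XX control and XY control gonads were Rosa26+/+, and all 3 groups carried Sf1-cre, which acts in somatic cells of the gonad. The mice were of a mixed 129Sv and C57Bl/6J strain, and the mesonephros had been taken off before RNA was extracted.

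The mesonephros is the transient embryonic kidney that lies along the gonad. In its epithelium the paired-box factors PAX2 and PAX8 and the LIM homeobox factor LHX1 specify the nephric lineage, and the receptor tyrosine kinase RET, which binds GDNF together with a GFRA co-receptor, drives growth of the duct and its buds. Mesonephric tubules persist as the efferent ducts in males and contribute to the rete, where PAX8 remains a marker. Several of these genes are not limited to tubules: Calb1 encodes the calcium-binding protein calbindin-D28k, Ret is used by enteric and sympathetic nerve precursors, and Emx1 is known from the forebrain while its relative Emx2 is needed to build the urogenital tract.

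Signals were deposited as log values and taken as log2. No source used here states the base, and another base would rescale every change and fold. The table has no detection calls. The 12 measured genes of a list of genes silent in this tissue, such as those of eye, pituitary and mature nephron, read between 4.52 and 6.65 on single arrays. Signals of that height are not shown to be above background. As far as background goes, a fold that starts or ends there is a lower bound, aside from its sampling error. Foxl2 itself read 7.67, 8.62, 7.18 and 6.72 in XY FOXL2+ gonads, 8.08, 7.30, 7.14 and 7.39 in XX controls, and 5.07, 5.55, 5.44 and 5.33 in XY controls, and its lowest XY FOXL2+ value exceeded the highest XY control value (change 2.20, limma adjusted p = 0.00122). In a principal component analysis XY FOXL2+ replicate 1 stood apart on the second component, at 76.9 against -22.6 to 22.1 on the other arrays. XY FOXL2+ replicates 3 and 4 stood apart on the third, at 49.7 and 44.2 against -35.6 to 12.7.

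Pax8 and Lhx1 were the members that differed between the sexes in opposite directions and have an entry in the RefSeq promoter table (GRCm38.p6), and the 250 bases before their start sites are shown so that the regions can be compared. Pax8 lies on the minus strand, with the window at chr2:24475600-24475849, and Lhx1 on the minus strand, at chr11:84525535-84525784. Capitals mark the letters CCAAT or, on the other strand, ATTGG.
Pax8: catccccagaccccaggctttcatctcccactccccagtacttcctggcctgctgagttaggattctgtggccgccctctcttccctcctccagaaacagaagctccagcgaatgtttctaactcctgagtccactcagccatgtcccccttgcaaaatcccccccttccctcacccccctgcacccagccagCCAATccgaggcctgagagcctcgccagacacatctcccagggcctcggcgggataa
Lhx1: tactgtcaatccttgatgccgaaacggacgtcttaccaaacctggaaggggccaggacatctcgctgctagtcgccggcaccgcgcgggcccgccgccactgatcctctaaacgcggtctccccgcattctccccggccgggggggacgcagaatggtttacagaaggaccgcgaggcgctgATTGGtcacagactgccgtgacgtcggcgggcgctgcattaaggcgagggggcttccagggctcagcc
CCAAT was found 1 time in each window, and 33.8% of the 32851 windows of this length in the table hold it on either strand. The letters TAAACA, a core of forkhead sites, were in neither window (12% of all windows), and the letters AAGGTCA, a core of SF1 sites, were in neither (4.08%). The same 2 motifs were searched in the windows of Emx1 and Pax2 and were not found.

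Calb1 had the largest changes of the 6 genes in both comparisons with XY controls. In XY FOXL2+ gonads it read 10.38, 9.80, 7.18 and 7.65 (log2 signal), in XX controls 10.26, 9.57, 9.75 and 9.66, and in XY controls 6.07, 5.89, 6.09 and 5.89. Every XY FOXL2+ and every XX array lay above every XY control array, and within XY FOXL2+ replicates 1 and 2 lay at the height of the XX controls while replicates 3 and 4 lay between the control groups. The means were 8.75 ± 1.58 in XY FOXL2+, 9.81 ± 0.31 in XX controls and 5.98 ± 0.11 in XY controls (SD, n = 4 each).

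XY FOXL2+ gonads were compared with XY controls to ask which genes follow FOXL2 in an XY gonad. In this comparison Calb1 rose, Lhx1 and Ret fell, and Pax8, Pax2 and Emx1 did not pass the test (limma over all 65956 clusters, adjusted p under 0.05). The 3 calls among 6 genes stand beside 7.12% of all clusters, the 1 that rose beside 2.46% and the 2 that fell beside 4.67%. Calb1 rose by 2.77 (SE 0.56, 95% confidence interval 1.57 to 3.97, adjusted p = 0.00836), an estimated 6.82-fold. The XY controls read where silent genes do, so background may have lowered this estimate. The call of Calb1 held under all 20 alternatives tried, with the highest adjusted p, 0.0421, in the fit on the 2 groups alone. The main fit shares 1 estimate of spread over the 3 groups, although Calb1 varied most in XY FOXL2+. The size of the rise depended on the arrays. Without XY FOXL2+ replicates 1 and 2 the rise was 1.43 (adjusted p = 0.000537), and without replicates 3 and 4 it was 4.11 (5.44e-07). These pairs follow the split of the Calb1 values, and the fit without replicates 1 and 2 was chosen after seeing the data. Each of these fits leaves out most of the spread within XY FOXL2+, so its adjusted p does not measure that spread.

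Lhx1, the LIM homeobox factor, read 6.18, 5.93, 5.96 and 5.98 in XY FOXL2+ gonads, against 6.67, 7.09, 6.39 and 6.31 in XY controls. All XY FOXL2+ arrays were below all XY controls, the nearest pair being 6.18 and 6.31. It fell by 0.60 (SE 0.14, adjusted p = 0.0203). All XY FOXL2+ arrays and 2 of the 4 XY control arrays lie within the range of silent genes, so the signal is not shown to be above background in either group and the fold is at best a lower bound. The call was lost in 2 of the 12 fits that leave out 1 array, without XY FOXL2+ replicate 2 or XY control replicate 1 (adjusted p up to 0.0568), in the fit on the 2 groups alone (0.0741), and without XY FOXL2+ replicates 3 and 4 (0.0743) or 1 and 2 (0.0511).

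Ret, the receptor, read 6.88, 7.54, 6.99 and 7.11 in XY FOXL2+ gonads, against 7.55, 8.09, 7.98 and 7.99 in XY controls. The groups met without overlapping, at XY FOXL2+ replicate 2 (7.54) and XY control replicate 1 (7.55). It fell by 0.77 (SE 0.18, adjusted p = 0.0219), 1.70-fold. That call was lost without XY FOXL2+ replicate 1 and without XY control replicates 2, 3 or 4 (adjusted p up to 0.0652), and without XY FOXL2+ replicates 3 and 4 together (0.0829).

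Pax8 read 7.52, 7.21, 7.23 and 7.17 in XY FOXL2+ gonads, against 6.80, 7.08, 6.56 and 6.65 in XY controls. Its groups did not overlap, with an exact permutation p of 0.0286, the smallest that 4 against 4 arrays can give, but the change of 0.51 (95% confidence interval 0.11 to 0.91) had an adjusted p of 0.131. Of all clusters 12.2% had groups that did not overlap in this comparison. Pax2 was the flattest, with means of 4.85 ± 0.05 in XY FOXL2+ and 4.86 ± 0.07 in XY controls (SD, n = 4 each) (change -0.01, 95% confidence interval -0.13 to 0.12). Emx1 read 5.88 to 6.06 and 5.92 to 6.11 in the same groups (change -0.03, interval -0.19 to 0.13).

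**Figure D1:**
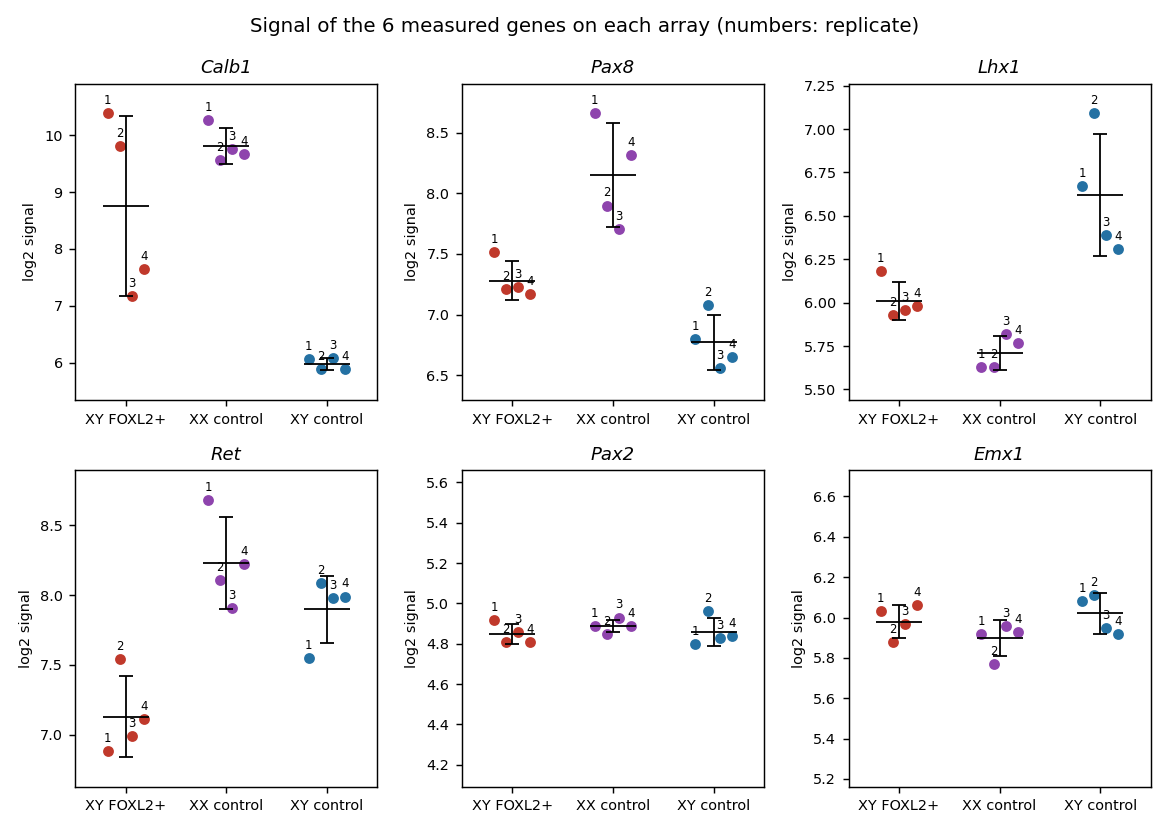
Log2 signal (y axis, with its own range in each panel) of the 6 measured genes in XY FOXL2+, XX control and XY control gonads, with 1 numbered point per array and the mean with its SD as bars (n = 4). Calb1 in XY FOXL2+ gonads splits into 2 arrays at 9.80 and 10.38 and 2 arrays at 7.18 and 7.65, while Pax2 and Emx1 are level across groups.

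The 2 control groups give the difference between ovary and testis at this age. Calb1 and Pax8 were higher and Lhx1 lower in XX than in XY controls, and Ret, Pax2 and Emx1 did not pass. The 3 calls among 6 genes stand beside 17.4% of all clusters, the 2 higher ones beside 7.17% and the lower one beside 10.2%. Calb1 was higher by 3.83 (SE 0.56, adjusted p = 0.000338), an estimated 14.2-fold from XY controls that read where silent genes do. Pax8 read 8.66, 7.90, 7.71 and 8.32 in XX controls, against 6.80, 7.08, 6.56 and 6.65 in XY controls. The lowest XX array was above the highest XY array (25.4% of clusters had groups apart), and the difference was 1.38 (SE 0.18, adjusted p = 0.000184), 2.59-fold. Lhx1 read 5.63 to 5.82 in XX controls, where silent genes read, against 6.31 to 7.09 in XY controls, a difference of -0.90 (SE 0.14, adjusted p = 0.000584). Ret read 8.68, 8.11, 7.91 and 8.22 in XX controls, which overlapped the 7.55 to 8.09 of XY controls (0.33, 95% confidence interval -0.06 to 0.72, adjusted p = 0.275). None of the 3 calls was lost under any of the alternatives that gave a value.

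XY FOXL2+ gonads were then set against XX controls, a comparison that shares arrays with each of the other two. Ret and Pax8 were lower in XY FOXL2+ gonads, 2 of 6 genes beside 5.51% of all clusters in either direction and 2.64% lower, and none was higher (2.87% of clusters). Ret was lower by 1.10 (adjusted p = 0.00391), a call that held under all 20 alternatives, unlike its call against XY controls, which was lost in 5 of 20. Pax8 differed by -0.87 (SE 0.18, adjusted p = 0.0159), and its XY FOXL2+ arrays lay below all XX arrays, where 11.5% of clusters had groups apart. This call was lost without XY FOXL2+ replicate 4 or XX control replicate 4 (adjusted p up to 0.0533) and without XY FOXL2+ replicates 3 and 4 (0.121). Lhx1 differed by 0.30 (95% confidence interval -0.01 to 0.60, adjusted p = 0.284). For Calb1 the difference of -1.06 had a wide interval, -2.26 to 0.15 (adjusted p = 0.344, or 0.46 in the fit on the 2 groups alone). It depended on the arrays: it was -2.39 without XY FOXL2+ replicates 1 and 2 (adjusted p = 4.5e-06), 0.28 without replicates 3 and 4 (0.526), and -1.68 with array weights (0.0225). The fit without replicates 1 and 2 was chosen after seeing the data. It leaves out most of the spread of Calb1 within XY FOXL2+, so its adjusted p does not measure that spread.

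**Figure D2:**
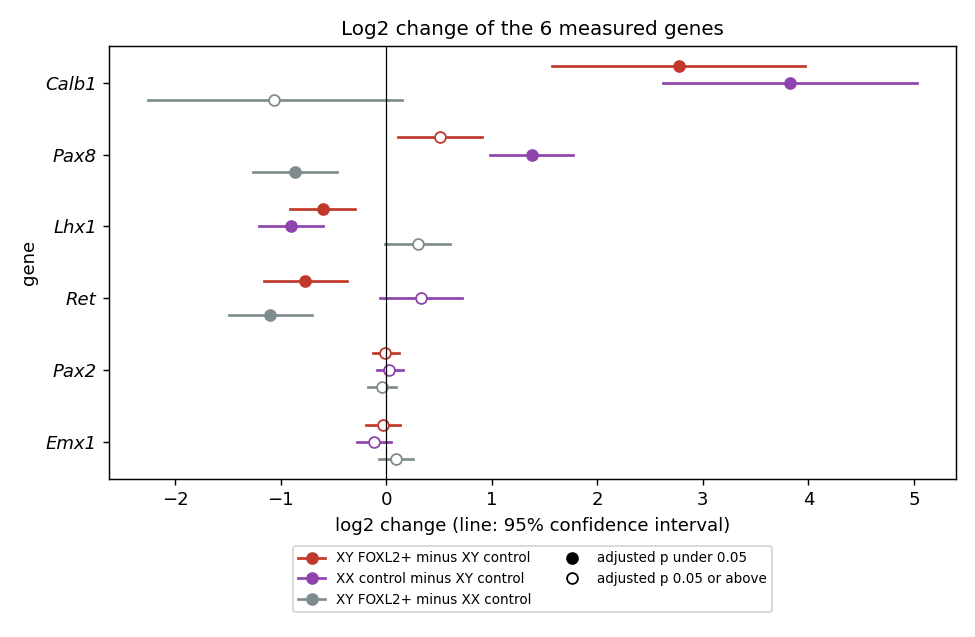
Log2 change of the 6 measured genes (x axis) with its 95% confidence interval in the 3 comparisons, where filled points have an adjusted p under 0.05. Calb1 lies to the right of 0 in the comparisons of XY FOXL2+ and of XX controls with XY controls (2.77 and 3.83), Lhx1 lies to the left in the same pair (-0.60 and -0.90), and Ret lies to the left in both comparisons of XY FOXL2+ (-0.77 and -1.10).

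The label of the gene group was checked against further genes of the mesonephric duct and tubule, of which 19 of 23 were measured. Of its genes, 4 known from the nephric duct were low and level: Wnt9b, the WNT ligand of the duct, read 5.95 to 6.17 over the 12 arrays, Hoxb7 5.74 to 6.33, Sim1 4.81 to 5.02, and Cdh16, the kidney cadherin, 5.46 to 5.85. None of these 4 passed in any comparison, and all lie where silent genes read, as do Pax2 and Emx1. They do not stand for the list. Tfcp2l1 (7.75 to 9.59), Hoxd11 (6.79 to 7.55) and Bmp7 (8.84 to 9.96) read above silent genes on every array. So did Npnt (7.59 to 10.26) and Emx2 (8.19 to 10.72). Lists of this kind were described by counts and medians only. In XY FOXL2+ against XY controls 3 of the 19 rose and 1 fell, with a median change of 0.04 beside 0.00 over all clusters. Of all clusters 2.46% were called higher and 4.67% lower there. Agtr2, an angiotensin receptor of fetal mesenchyme, read 8.67, 9.07, 8.65 and 8.88 in XY FOXL2+ gonads, against 7.65, 8.38, 7.28 and 7.09 in XY controls (change 1.22, adjusted p = 0.00524). Agtr2 was also higher than in XX controls (1.00, 0.0201), a call lost without XY FOXL2+ replicate 4 or XX control replicates 2 or 3 (up to 0.0659). Npnt, which encodes the matrix protein nephronectin, rose by 1.27 (0.0427) and Osr1, an intermediate mesoderm factor, by 0.62 (0.0484). Sall1, a zinc finger factor of kidney mesenchyme, fell by 0.63 (0.0122, or 0.0721 without XY FOXL2+ replicates 1 and 2). The calls of Npnt and Osr1 were lost in most fits that leave out 1 array (10 and 9 of 12, adjusted p up to 0.108 and 0.116).

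Between the control groups 5 of the 19 genes were higher in XX (Emx2, Npnt, Osr1, Bmp7 and Wfdc2) and 2 lower (Eya1 and Sall1). Of all clusters 7.17% were called higher and 10.2% lower there. The calls of Osr1, Bmp7 and Wfdc2 were lost in 5 of 18, 6 of 18 and 3 of 17 alternatives, and Wfdc2 read where silent genes do (5.92 to 6.22). XY FOXL2+ gonads had 2 higher (Eya1 and Agtr2) and 2 lower (Emx2 and Bmp7) than XX controls, beside 2.87% and 2.64% of clusters. In that comparison the call of Emx2 was lost in 8 of 20 alternatives and that of Bmp7 in 2. Emx2, the relative of Emx1, read 9.97, 10.27, 8.53 and 8.70 in XY FOXL2+ gonads, 10.72, 10.66, 10.69 and 10.72 in XX controls, and 8.53, 8.86, 8.38 and 8.19 in XY controls. XY FOXL2+ replicates 1 and 2 were close to XX controls and replicates 3 and 4 within the range of XY controls, and the change against XY controls did not pass (0.88, adjusted p = 0.14), while the difference between XX and XY controls was 2.21 (0.000354). Eya1, a transcriptional coactivator of kidney mesenchyme, read 7.81, 7.35, 9.27 and 9.72 in XY FOXL2+ gonads, against 6.37 to 6.79 in XX controls and 8.89 to 9.37 in XY controls. It was lower in XX than in XY controls by 2.63 (adjusted p = 0.000546), and higher in XY FOXL2+ than in XX controls, with means of 8.54 and 6.54 (0.0127, or 0.0552 in the fit on those 2 groups alone).

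Of 6 genes listed for rete and supporting-like cells, the Pax8-positive cells at the edge of the gonad, Krt19 rose in XY FOXL2+ against XY controls and 5 did not pass. For this list and the duct epithelium genes, the shares of all clusters were 2.46% higher and 4.67% lower in this comparison. They were 7.17% and 10.2% between controls, and 2.87% and 2.64% against XX controls. Between controls Krt19 was higher in XX (0.64, adjusted p = 0.0222) and 3 were lower, the signalling ligand gene Bmp4 by 1.11 (0.000434), the adhesion gene Ncam1 by 0.56 (0.037) and Sox17 by 0.26 (0.0349). Except for Bmp4 these calls were lost in 4 to 7 of 12 fits that leave out 1 array (adjusted p up to 0.114). Bmp4 read 8.43, 7.70, 8.47 and 8.51 in XY FOXL2+ gonads, against 7.07 to 7.47 in XX controls, and was the only gene of this list called there (1.03, 0.00349). Sox17, a factor of the rete, read 5.93 to 6.11 in XY FOXL2+ gonads, 5.92 to 6.07 in XX controls and 6.09 to 6.39 in XY controls, where silent genes read. Of 10 duct epithelium genes 2 rose and 1 fell against XY controls. Krt8, a keratin of simple epithelia, read 10.46, 10.33, 9.25 and 8.92 in XY FOXL2+ gonads, against 8.18, 7.97, 8.12 and 8.02 in XY controls (change 1.66, adjusted p = 0.00259), and Krt19 rose by 0.84 (0.0102). Its partner Krt18 read 9.63, 9.84, 7.71 and 7.67 and did not pass (1.42, 0.0737). Cdh1, the epithelial cadherin that germ cells also carry, fell by 1.72 (0.000831), and Epcam did not pass (-0.29, 0.474). Between controls 4 of the 10 were higher in XX, Krt18 by 2.54 (0.00113), Krt8 by 2.48 (4.55e-05), Krt7 by 0.89 (0.000231) and Krt19, and Cdh1 was lower by 1.86 (0.00016). Against XX controls Krt7 alone of the 10 was called, reading 7.56 to 8.17 in XY FOXL2+ gonads and 8.62 to 8.79 in XX controls (-0.90, 0.00122).

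Ret acts with a ligand and a co-receptor, and 11 of 12 listed genes around it were measured. In XY FOXL2+ against XY controls none rose and 3 fell, beside 2.46% and 4.67% of all clusters, with a median change of 0.03. Gdnf, the ligand made by Sertoli cells and by kidney mesenchyme, read 6.35, 5.81, 7.52 and 7.27 in XY FOXL2+ gonads, 5.58, 5.72, 5.65 and 5.79 in XX controls, and 8.17, 8.17, 7.94 and 8.04 in XY controls. All XY FOXL2+ arrays lay below all XY controls, where 12.2% of clusters had groups apart. They also lay above all XX controls (11.5% of clusters), but the nearest pair was 5.81 and 5.79. The XX controls and XY FOXL2+ replicates 1 and 2 read where silent genes do. The change against XY controls was -1.35 (adjusted p = 0.0112, or 0.0541 in the fit on the 2 groups alone). Gdnf was 1.05 above XX controls (0.0496), a call lost in 10 of 12 fits that leave out 1 array (up to 0.144). The neurturin co-receptor Gfra2 fell by 0.69 (0.0172, or 0.0507 with array weights and 0.0625 without XY FOXL2+ replicates 1 and 2) and the feedback inhibitor Spry1 by 0.47 (0.00328). Gfra1, the co-receptor for GDNF, did not pass (0.03, 0.914), nor did the other ligands Nrtn (0.21), Artn (0.06) and Pspn (0.23).

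Between control groups 1 gene of this list was higher in XX and 5 were lower, beside 7.17% and 10.2% of all clusters. The lower ones were Gdnf (-2.40), the ETS factors Etv5 (-1.40) and Etv4 (-0.27), Spry1 (-0.62) and the phosphatase gene Dusp6 (-1.87), and the higher one was the artemin co-receptor Gfra3 (0.65). On all arrays Gfra3 (5.37 to 6.19) and Etv4 (5.61 to 6.10) read where silent genes do, so neither is shown to be above background. Etv5 read 8.31, 7.93, 8.70 and 8.59 in XY FOXL2+ gonads, against 7.32 to 7.64 in XX controls and 8.69 to 8.99 in XY controls, so that it was 0.95 above XX controls (0.00285) and did not pass against XY controls (-0.44, 0.106). Etv5, Etv4, Spry1 and Dusp6 also respond to other receptor tyrosine kinases. The call of Etv4 between controls was lost in 9 of 12 fits that leave out 1 array (adjusted p up to 0.127).

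**Figure D3:**
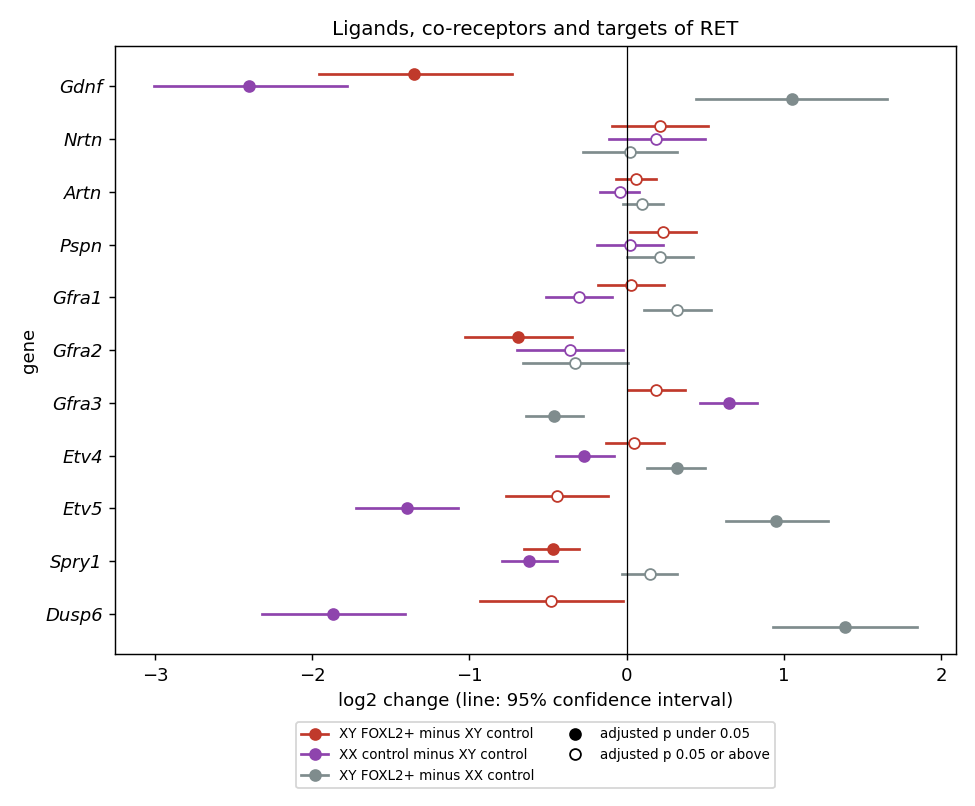
Log2 change (x axis) with its 95% confidence interval of 11 measured ligands, co-receptors and target genes of RET in the 3 comparisons, where filled points have an adjusted p under 0.05. Gdnf and Spry1 lie to the left of 0 in both comparisons with XY controls (Gdnf -1.35 and -2.40, Spry1 -0.47 and -0.62), and Dusp6 passes in the 2 comparisons that involve XX controls.

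Relatives of the members were measured for 24 of 25 genes. In XY FOXL2+ against XY controls 2 rose and 2 fell, beside 2.46% and 4.67% of all clusters. Gata6, a gonadal GATA factor, rose by 0.70 (adjusted p = 0.00594), and Ldb2, which binds LIM homeobox factors such as LHX1, fell by 1.05 (3.27e-05), reading 12.07 to 12.40 in XY FOXL2+ and 13.18 to 13.33 in XY controls. Lhx9, which the gonad needs to form, fell by 0.44 (0.0254) and Pax6 rose by 0.25 (0.0478), and both calls were lost in most fits that leave out 1 array (7 and 11 of 12). Pax6 read 5.66 to 6.14 over all arrays, where silent genes read. Between controls 6 relatives were higher in XX, Gata2 by 1.44 (7.18e-05), Gata6, Emx2, Lhx2, Ldb1 and Pax6, and Ldb2 was lower by 1.05 (1.66e-05). The shares of all clusters there were 7.17% higher and 10.2% lower. Against XX controls Gata2, Gata6, Lhx9 and Emx2 were lower in XY FOXL2+ gonads (-1.01, -0.62, -0.67 and -1.33), of which Gata2 and Lhx9 held under all 20 alternatives. The share of all clusters called lower there was 2.64%. No calcium-binding relative of Calb1 in the list passed. Calb2, S100g and Pvalb changed by 0.00, 0.05 and 0.04 (adjusted p = 0.984, 0.827 and 0.806), all at heights where silent genes read.

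Cell types that could carry these genes were followed through lists of their markers. The 6 granulosa cell genes, Foxl2 among them, had a mean signal of 9.29, 10.04, 8.14 and 8.05 in XY FOXL2+ gonads. It was 10.17 to 10.52 in XX controls and 7.39 to 7.46 in XY controls. By this mean, which includes Foxl2, XY FOXL2+ replicates 1 and 2 were the higher pair, as for Calb1. Against XY controls 3 of the 6 rose, Foxl2, Fst and Runx1, beside 2.46% of all clusters. Foxl2 is the gene that the allele carries, so its rise comes with the design. The call of Runx1 was lost in the fit on the 2 groups alone (adjusted p = 0.0508), and Rspo1, Irx3 and Wnt4 did not pass. The 6 Sertoli cell genes all fell, with means of 8.56, 7.56, 9.66 and 9.45 in XY FOXL2+ gonads, against 11.02 to 11.40 in XY controls, and so did the 4 Leydig cell genes measured, with means of 8.66, 7.91, 11.09 and 11.17 against 15.78 to 16.17. The share of all clusters that fell was 4.67%. The calls of the Sertoli genes Cst9 and Sox8 were lost in 8 and 7 of 20 alternatives. In the fit on the 2 groups alone their adjusted p was 0.11 and 0.102. XY FOXL2+ replicate 1 had the lowest mean over 7 germ cell genes, 10.54 against 11.17 to 11.44 in its group and 11.32 to 11.83 in XY controls. All 6 meiosis genes rose against XY controls, as did 2 of 5 endothelial genes, beside 2.46% of all clusters. Of the 2 endothelial calls, that of Emcn was lost in 5 of 20 alternatives. The part of these cell types in the differences of the members was not tested, and in whole gonads fewer cells of a type and less RNA per cell cannot be told apart. Ret and Gata3 are also known from nerve precursors and lymphocytes. Of 8 neural crest, sympathetic and glial genes 0 were called by limma in XY FOXL2+ against XY controls (5 at an unadjusted p under 0.05). The shares of all clusters called were 7.12% in that comparison, 17.4% between controls and 5.51% against XX controls. Between controls 3 were lower in XX: Erbb3 by 1.74 (adjusted p = 4.69e-06), Sox10 by 0.54 (0.000712) and Th by 0.42 (0.0104). Th read 5.77 to 6.48 over all arrays, where silent genes read. Erbb3, a receptor of Schwann cell precursors, was the 1 gene of this list called against XX controls, reading 7.90 to 8.60 in XY FOXL2+ gonads and 6.82 to 7.05 in XX controls (1.39, 0.000196). Of 6 lymphocyte genes 0 were called in any comparison by limma, with 0, 0 and 2 at an unadjusted p under 0.05 in the order of the comparisons above.

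**Figure D4:**
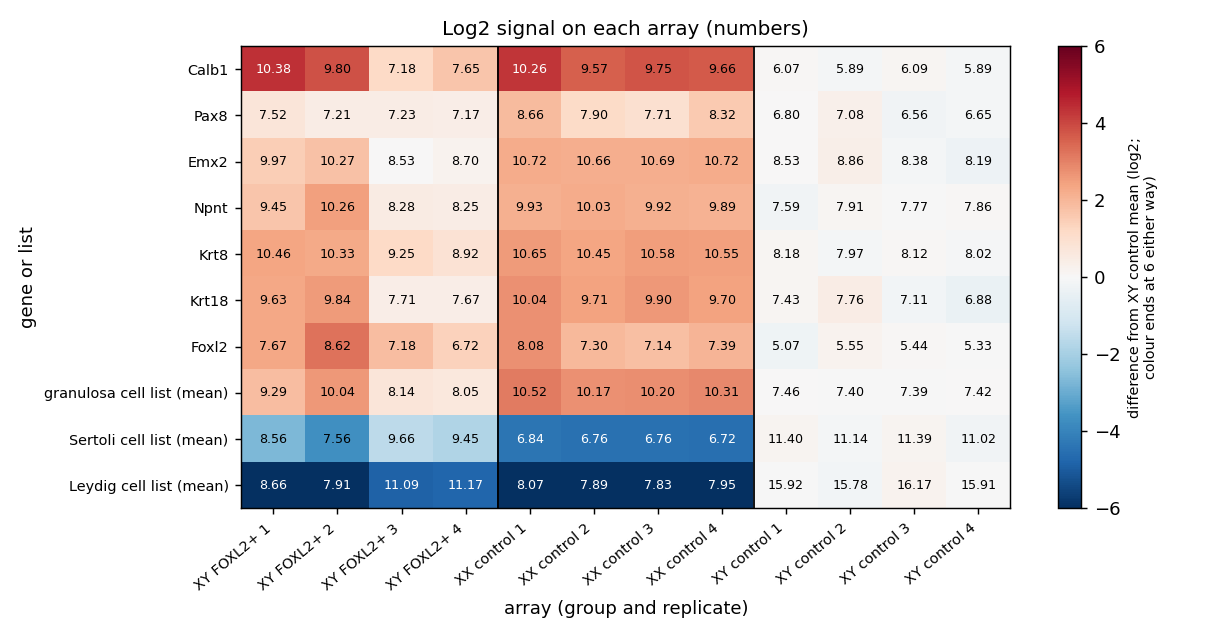
Log2 signal (printed numbers) of Calb1, Pax8, 4 other tubule or epithelial genes, Foxl2 and the mean of 3 cell type lists on each array, coloured by the difference from the XY control mean. The 4 genes, Emx2, Npnt, Krt8 and Krt18, all read higher in XY FOXL2+ replicates 1 and 2 than in 3 and 4. They do not stand for their lists, since Osr1, Eya1 and Cdh1 read lower in replicates 1 and 2. XY FOXL2+ replicates 1 and 2 show Calb1 at 10.38 and 9.80 and replicates 3 and 4 at 7.18 and 7.65, and the granulosa list mean stands at 9.29 and 10.04 in the first pair and 8.14 and 8.05 in the second.

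The genes with the most similar pattern were sought by the root mean square difference over the 12 arrays after each gene was centred on its own mean. For Calb1 they were Lrrn1, Mbnl3 and Sorbs2 (0.48, 0.58 and 0.59 on the log2 scale). Lrrn1 read 11.95, 12.07, 10.32 and 10.12 in XY FOXL2+ gonads, with means of 12.86 in XX controls and 8.84 in XY controls. For Pax8 they were Upk3b, Tnni1 and Gabrg3 (0.21, 0.22 and 0.23), and Upk3b, a uroplakin gene, had means of 11.06, 12.07 and 10.46 in XY FOXL2+, XX control and XY control gonads. For Lhx1 they were Selenom, Hspe1 and Six4 (0.13 to 0.15), and for Ret they were Camsap3, Kcng4 and Cst13 (0.20 to 0.23). These distances are smaller for genes that vary little, so they rank genes for 1 member and not members against each other.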

How the data were processed

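The authors' deposited table holds log values, taken as log2; no source used here gives the base, background correction, probe summarization or normalization. Array type and labelling with the WT Plus kit are per the labels' protocols. Of 72688 entries, 6732 control probe sets were left out and 65956 clusters were tested without a filter on signal. Symbols are those of the array annotation with older ones updated through RefSeq, giving 31258 clusters a single symbol; 1492 with several stayed unnamed and 33206 had none listed. Where a gene had several clusters, that with the highest mean over 12 arrays was used; each of the 6 measured members had 1.

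Groups came from sample titles. limma 3.58.1 in R 4.3.3 (lmFit, eBayes with an intensity trend) was fitted to all 12 arrays (9 residual degrees of freedom), two-sided, with Benjamini-Hochberg adjustment over all clusters. The fit was also run on simulated data. These gave each cluster the same spread in every group, so they do not cover a spread that differs between groups. Exact permutation used 70 assignments. The precision is limited by 4 arrays per group. The members and 14 gene lists were chosen with earlier results of these data known. All members are named; list genes could be named where they passed or define a list, or with their values where they did not pass; and for each member called in a comparison the 3 genes nearest in pattern. Alternatives were the 2 groups compared alone, quantile normalization, array weights, no trend, a signal filter, a replicate block, leaving out each array, and leaving out pairs of XY FOXL2+ arrays.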

Additional observations from a re-analysis of the deposited data

How the results depend on the processing

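Over the 6 measured genes in 3 comparisons, 318 of 339 values under alternatives kept their direction and their side of the threshold. This count includes genes not called, and leaving out an array of the third group cannot move a change. The 13 lost calls were those of Lhx1 (5 of 19) and Ret (5 of 20) against XY controls and Pax8 (3 of 20) against XX controls. Same-numbered arrays of different groups had correlations of deviations of -0.091 to 0.179, so numbers were not taken as pairs. The replicate block changed 0 member calls, but among list genes it ended those of Osr1 (0.0723) and Pax6 (0.0532) in XY FOXL2+ against XY controls, of Etv4 (0.0923), Ncam1 (0.0677) and Wfdc2 (0.0508) between controls, and of Gdnf (0.0632), Etv4 (0.0961) and Star (0.0627) against XX controls (adjusted p). With the block Calb1 had an adjusted p of 0.00809 in XY FOXL2+ against XY controls, and the count of called clusters was 4356, 10905 and 3207 in the 3 comparisons in their order above. Called clusters in XY FOXL2+ against XY controls numbered 4698, but 2700 with only the 2 groups compared, 8318 without XY FOXL2+ replicates 3 and 4, and 3124 (without XY control replicate 3) to 5392 without single arrays. Higher calls were 1621 against 3077 lower, and 2184 against 2656 after quantile normalization; for XX against XY controls the split was 4727 against 6732, and 6116 against 5385 after it. In XY FOXL2+ against XX controls 3635 were called, 1916 with only the 2 groups, 6752 with array weights, 1855 without replicates 3 and 4, 8343 without replicates 1 and 2 (chosen after seeing the data), and 2012 to 5992 without single arrays, lowest without XY FOXL2+ replicate 4 and highest without its replicate 2. Members called fell to 1 without replicates 3 and 4 in either comparison of XY FOXL2+, and without single arrays they numbered 2 to 3 against XY controls and 1 to 2 against XX controls. Directions turned for Pax2 (-0.03 to 0.03 without single arrays, 0.01 without replicates 3 and 4) and Emx1 (-0.06 to 0.00) against XY controls, neither called, and for Calb1 against XX controls (0.28 without replicates 3 and 4). The cause was not tested. The signal filter removed Pax2, Lhx1 and Emx1, so they have no value there, and no member had a further cluster to try. Of 120 list gene calls, 89 held under all alternatives and 0 turned.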
